A study of Mus musculus with 12 samples.

Results

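The potassium channel gene family was taken here as 95 of the 24411 gene symbols of the count table, all beginning with Kcn. They comprise 38 voltage-gated (Kv) genes, 8 genes of the calcium- and sodium-activated class (SK and BK), 14 inward rectifiers (Kir), 14 two-pore-domain (K2P) genes, 17 auxiliary subunits and 4 non-coding RNAs named after a neighbouring channel gene. RNA was taken from the medial prefrontal cortex, and the mice were female, on a C57BL/6J background and 8 to 12 weeks old. The 4 groups of 3 libraries each were Cav3.1 KO mice with chronic stress, Cav3.1 KO mice without stress, WT mice with chronic stress and WT mice without stress. Cav3.1 is the pore of a T-type calcium channel, encoded by Cacna1g, and chronic stress consisted of daily forced swimming or tail suspension over 5 days. KO mice came from a bioresource centre and WT mice from a commercial breeder, so genotype and colony cannot be told apart. Whether each library stands for its own animal is not stated in the labels, and the p-values therefore cover only library-to-library spread, which may be technical.

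Potassium channels let potassium leave or enter a cell along its gradient and set the resting potential, the shape of the action potential and the firing pattern. Kv channels open on depolarisation, SK and BK channels on a rise in internal calcium, and their sodium-activated relatives on sodium entry. Kir channels hold the membrane near the potassium equilibrium potential, with a G protein-gated subgroup (GIRK) that responds to neurotransmitter receptors, and K2P channels carry the background leak. Auxiliary subunits such as the Kv beta proteins, the KChIP calcium sensors of Kv4 channels and the BK beta subunits change how the pores gate or traffic. In prefrontal pyramidal cells and interneurons the balance of these currents sets how readily synaptic input becomes spikes.

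Library totals ran from 15469590 to 31082240 estimated counts, and 81 of the 95 family members had enough counts to be tested among 15199 genes. The targeted gene Cacna1g stood at 58.5, 65.95 and 57.6 CPM (read counts scaled to the normalised library size) in stressed KO, 65.1, 54.6 and 61.7 CPM in unstressed KO, 128, 109.8 and 109 CPM in stressed WT and 133, 144 and 135 CPM in unstressed WT. The highest KO library was well under the lowest WT library. The cortical excitatory marker Slc17a7 was present in every library, between 1206 and 2066 CPM. Unstressed WT libraries 1 and 2 stood apart: their olfactory bulb scores, the average log2 CPM of the 13 tested of 14 markers after centring each over the 12 libraries, were 3.1 and 3.33, against 0.46 in unstressed WT library 3 and -1.76 to 0.38 in the other 9. Their meningeal scores over 15 markers were 1.60 and 1.89, against 0.32 in unstressed WT library 3 and -1.20 to 0.25 in the other 9. Unstressed WT library 3 itself thus scored slightly above those 9 on both lists, and may not be free of such tissue. Stressed KO library 1 had a striatal projection neuron score of 1.97, against -0.38 to 0.04 in the other 11. Members called with unstressed WT as a comparator are therefore also given with library 3 as the lone unstressed WT library, assumed to vary like the other groups. In RNA from whole tissue, fewer cells of a type and less RNA per cell cannot be told apart.

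Levels were compared between genes as CPM per kb of annotated exons, averaged over the 12 libraries. Among the Kv genes Kcnf1, which encodes Kv5.1, an electrically silent subunit that modifies Kv2 channels, was highest at 52.6 CPM per kb. Kcna1, the axonal channel Kv1.1, followed at 37.8 CPM per kb. Kcnv1 (Kv8.1, also electrically silent) at 31.9 CPM per kb was level, within the spread between libraries, with Kcna2, the axonal Kv1.2, at 30.03 CPM per kb. The dendritic A-type channel Kcnd2 (Kv4.2) stood at 26.5 CPM per kb. The SK and BK class was lower: the sodium-activated Kcnt1 (Slack) reached 10.97 CPM per kb, the BK pore Kcnma1 6.603 CPM per kb, and Kcnn1 (SK1) 3.96 CPM per kb, beside Kcnn2 (SK2) at 3.91 CPM per kb.

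Kcnj4, the strong inward rectifier Kir2.3, had the highest level of all members at 80.3 CPM per kb. The GIRK1 gene Kcnj3 stood at 39.7 CPM per kb and Kcnj10, the astrocytic Kir4.1 that clears extracellular potassium, at 36.1 CPM per kb. Of the K2P genes Kcnk1 (TWIK1) led with 39.8 CPM per kb, ahead of the mechanically gated TREK1 gene Kcnk2 at 13.3 CPM per kb and the acid-sensitive TASK1 gene Kcnk3 at 7.64 CPM per kb. Kcnk12 (THIK2) was close behind at 7.12 CPM per kb. Among auxiliary genes Kcnab2 (Kv beta2) had 72.9 CPM per kb, Kcnip3 (KChIP3, also known as the repressor DREAM) 51.7 CPM per kb and Kcnip2 (KChIP2) 24.4 CPM per kb. The non-coding members were lower, with 2.08 CPM per kb for Kcnmb4os2, 0.686 CPM per kb for Kcnd3os and 0.221 CPM per kb for Kcnq1ot1, whose annotated length of about 93.1 kb divides its reads thinly.

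**Figure D1:**
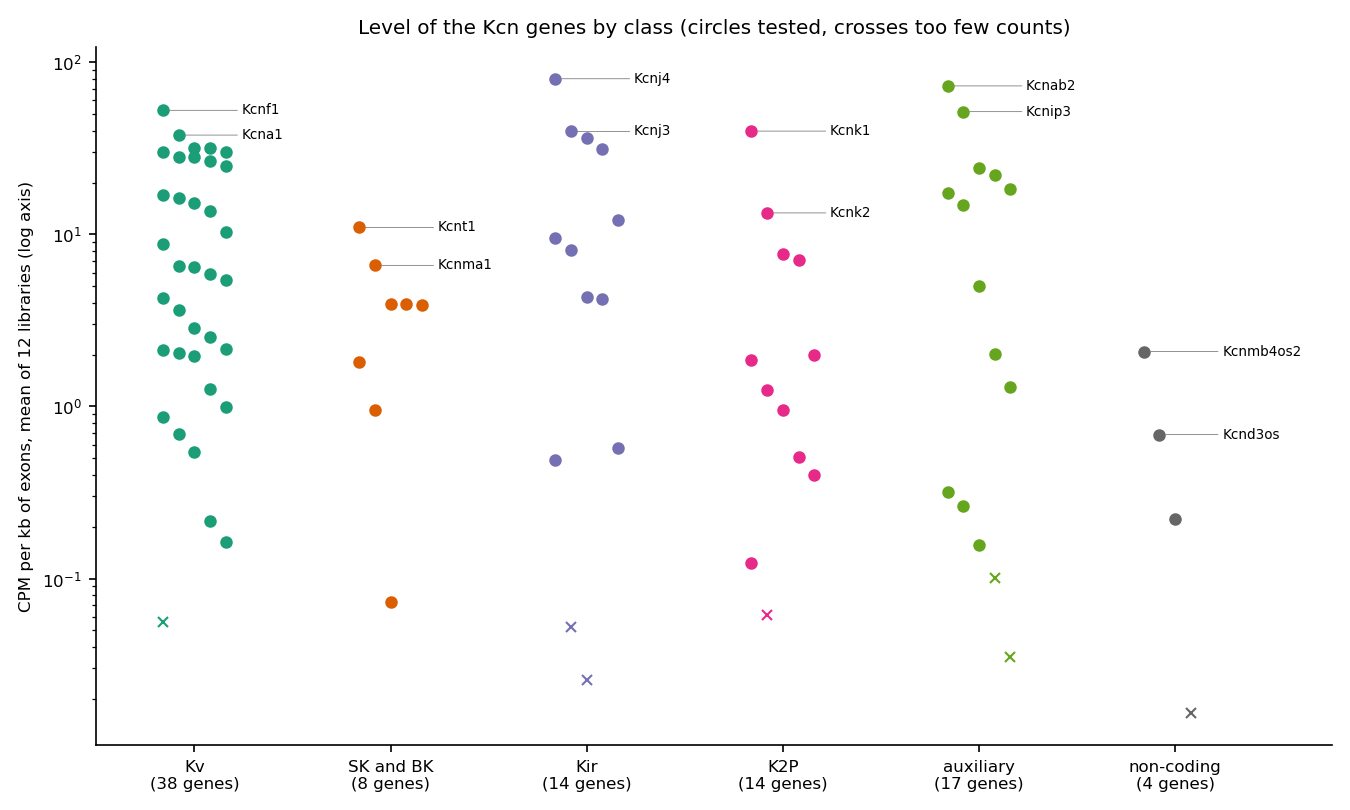
Mean level of the Kcn genes over the 12 libraries, in CPM per kb of exons on a log axis, by class; circles are the tested genes, crosses those with too few counts, and levels under 0.01 CPM per kb are not drawn. Kcnj4 at 80.3, Kcnab2 at 72.9 and Kcnf1 at 52.6 CPM per kb are the highest, and every class spans more than a factor of 10.

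The 14 members with too few counts to test were Kcna7, Kcna10, Kcnv2, Kcnj1, Kcnj5, Kcnj15, Kcnk7, Kcnk16, Kcnk18, Kcne1, Kcne2, Kcne3, Kcnmb3 and Kcnmb4os1. Kcnk16 and Kcnk18 were at 0 in all 12 libraries, which allows up to 3 counts per library, or 0.0920 to 0.192 CPM, from counting error alone. Kcna5 and Kcna6 carried decimals in every library, where the authors' counting shared reads out among similar or overlapping sequences, and their values are uncertain. Kcna6 also overlaps the antisense gene Gm26673 over 39.6% of its exonic bases. Kcnmb4 overlaps Kcnmb4os2 on the opposite strand over 20.8% of its exonic bases, and Kcnj13 overlaps Gigyf2 over 49.1%. Whether counting used strand is not given in the sources used here, so reads of these pairs may not be separated.

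Summed over the members of a class, Kv genes took 2823, 3165 and 2847 CPM in stressed KO, 3078, 2934 and 3497 CPM in unstressed KO, 3460, 3448 and 3294 CPM in stressed WT and 2953, 3065 and 3444 CPM in unstressed WT. The stressed KO libraries lay below the stressed WT libraries without overlap, and all other pairs of groups overlapped. Kir genes took 728, 859 and 809 CPM in stressed KO, 839, 851 and 844 CPM in unstressed KO, 899, 876 and 868 CPM in stressed WT and 975, 958 and 926 CPM in unstressed WT, so that the unstressed WT libraries were the highest of all 12. Auxiliary genes took 995, 1048 and 1057 CPM in stressed KO, 1002, 1066 and 1076 CPM in unstressed KO, 1115, 1091 and 1109 CPM in stressed WT and 923, 915 and 982 CPM in unstressed WT, where the unstressed WT libraries were the lowest of all 12. K2P genes took 214, 236 and 218 CPM in stressed KO, 226, 251 and 233 CPM in unstressed KO, 264, 251 and 263 CPM in stressed WT and 215, 217 and 245 CPM in unstressed WT. Their stressed KO libraries were again all below those of stressed WT. The same held for the Kir and auxiliary sums. It held narrowly for SK and BK, with 317.5, 286.2 and 249.8 CPM in stressed KO and 318.3, 349.6 and 334.3 CPM in stressed WT. The non-coding sums went the other way. A sum is carried by its most abundant genes, and no test was made on it.

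Across the 4 pairwise comparisons of groups, the call rule was an adjusted p under 0.05 in edgeR's quasi-likelihood test, adjusted over all 15199 genes. Stress in WT and genotype without stress, which share the unstressed WT libraries, gave 20 members (21.9% of all genes) and 21 members (23.2% of all genes) past the threshold. Stress in KO and genotype with stress gave 0 each, with 0.0197% and 0.25% of all genes.

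**Figure D2:**
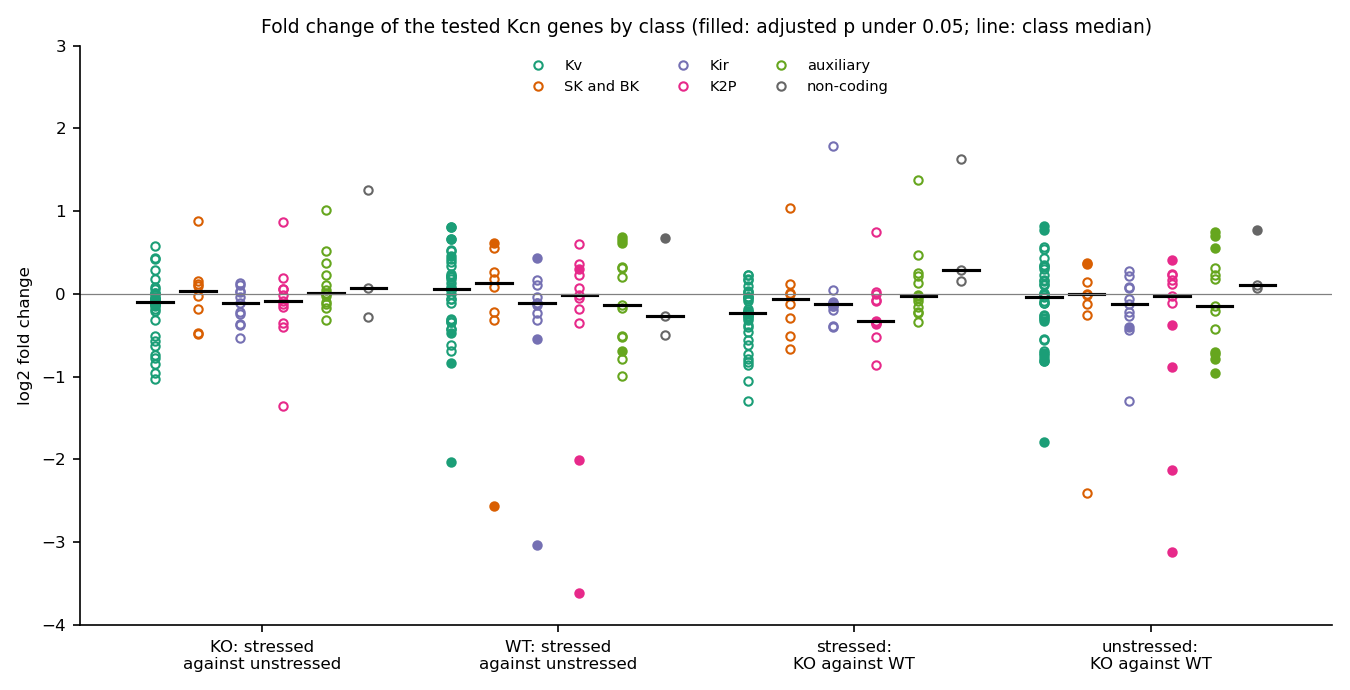
Log2 fold change of each tested Kcn gene in the 4 pairwise comparisons, by class (35 Kv, 8 SK and BK, 11 Kir, 11 K2P, 13 auxiliary, 3 non-coding); filled points have an edgeR adjusted p under 0.05 and black lines are class medians. Filled points occur where unstressed WT is the comparator, and the medians of stressed KO against stressed WT lie below 0 in 5 of the 6 classes.

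Averaged over both stress levels, 4 family members were lower in KO than in WT and 0 were higher. Kcnk12, Kcnh5 and Kcnj2 were among the 4, which are 4.94% of the 81 tested members. Of all genes 6.33% were called in this comparison, 3.22% as lower and 3.11% as higher, so the share of the family was near that of all genes. At an unadjusted p under 0.05 there were 32 members (39.5%), against 27.4% of all genes. The split depended on the fit: DESeq2 called 4 higher and 13 lower, the replicate block gave 2 higher and 7 lower, and leaving out unstressed WT library 3 gave 9 higher and 15 lower. Kcnk12, Kcnh5 and Kcnj2 come from the K2P, Kv and Kir classes. Kcnh5 encodes Kv10.2 of the ether-à-go-go group. Kcnk12 encodes the K2P subunit THIK2, and Kcnj2 the strong inward rectifier Kir2.1 of neurons, heart and skeletal muscle. Their promoters were found in the RefSeq table of GRCm38.p6, 250 bases before to 50 after the start, and are shown because these genes differed by genotype averaged over stress. They are written 5′ to 3′ on the gene's strand, with GC boxes (GGGCGG or its reverse complement) and the E-box CACGTG in capitals.
Kcnk12 (chr17:87797945-87798244, minus strand): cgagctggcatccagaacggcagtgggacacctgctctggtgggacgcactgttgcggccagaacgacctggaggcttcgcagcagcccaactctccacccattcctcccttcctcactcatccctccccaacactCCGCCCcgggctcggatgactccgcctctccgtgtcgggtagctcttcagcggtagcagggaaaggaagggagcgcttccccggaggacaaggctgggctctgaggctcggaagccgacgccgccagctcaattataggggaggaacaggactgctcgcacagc
Kcnh5 (chr12:75177283-75177582, minus strand): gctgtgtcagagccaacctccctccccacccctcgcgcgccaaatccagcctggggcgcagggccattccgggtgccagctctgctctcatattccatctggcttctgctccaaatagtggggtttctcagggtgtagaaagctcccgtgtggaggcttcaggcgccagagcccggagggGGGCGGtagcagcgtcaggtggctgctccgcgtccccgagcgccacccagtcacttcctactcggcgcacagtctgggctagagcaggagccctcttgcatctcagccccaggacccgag
Kcnj2 (chr11:111065914-111066213, plus strand): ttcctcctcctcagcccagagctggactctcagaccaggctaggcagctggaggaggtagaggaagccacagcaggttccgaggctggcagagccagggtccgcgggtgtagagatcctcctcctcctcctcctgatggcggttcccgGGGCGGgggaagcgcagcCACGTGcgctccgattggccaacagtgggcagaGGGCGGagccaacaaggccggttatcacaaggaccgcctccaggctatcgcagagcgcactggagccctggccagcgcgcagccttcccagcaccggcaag
The Kcnk12 and Kcnh5 promoters hold 1 GC box each and that of Kcnj2 holds 2 GC boxes and 1 E-box, with GC contents of 64.3% for Kcnk12, 65.3% for Kcnh5 and 66.7% for Kcnj2. Of the 5 motifs searched, the GC box alone occurs in all 3 of them.

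Kcnk12 (chr17:87745801-87797994, minus strand) had 10.3, 13.1 and 10.2 CPM in stressed KO, 11.9, 13.2 and 12.5 CPM in unstressed KO, 17.4, 15.1 and 15.9 CPM in stressed WT and 16.8, 15.3 and 16.9 CPM in unstressed WT. It was the only member of the 81 whose 6 KO libraries all lay to one side of the 6 WT libraries, as 2.25% of all genes did. The means were 11.9 ± 1.34 CPM in KO and 16.2 ± 0.931 CPM in WT (SD, n = 6 each). The log2 fold change was -0.45 ± 0.08 (SE, edgeR adjusted p = 0.0112).

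Kcnh5 (chr12:74897220-75177332, minus strand) had 7.904, 10.1 and 6.21 CPM in stressed KO, 14.8, 11.96 and 20.5 CPM in unstressed KO, 26.3, 19.7 and 14.1 CPM in stressed WT and 29.04, 24.9 and 21.9 CPM in unstressed WT. The stressed KO libraries were the lowest of all 12, while unstressed KO libraries 1 and 3 reached into the WT range. Its means were 11.9 ± 5.16 CPM in KO and 22.6 ± 5.32 CPM in WT (SD, n = 6 each), a log2 fold change of -0.99 ± 0.18 (SE, edgeR adjusted p = 0.0138). Of the 4 genes it had the largest fold change.

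Kcnj2 (chr11:111066164-111076821, plus strand) had 18.8, 20.2 and 17.2 CPM in stressed KO, 21.96, 19.2 and 24.3 CPM in unstressed KO, 25.01, 25.6 and 23.03 CPM in stressed WT and 26.1, 29.3 and 30.7 CPM in unstressed WT. Unstressed KO library 3 was the only KO library above any WT library. The log2 fold change was -0.39 ± 0.07 (SE, edgeR adjusted p = 0.0161), with means of 20.3 ± 2.53 CPM in KO and 26.6 ± 2.84 CPM in WT (SD, n = 6 each). Kcnj2 lies on the chromosome of Cacna1g, 16.6 Mb away.

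The genotype average includes stressed KO against stressed WT, which uses no unstressed WT library, so part of each value is fixed when those are left out. With library 3 as the lone unstressed WT library the log2 fold changes were -0.48 for Kcnk12, -0.89 for Kcnh5 and -0.44 for Kcnj2, of similar size. None of the 4 then passed the threshold (edgeR adjusted p 0.0521 for Kcnk12, 0.0838 for Kcnh5 and 0.05601 for Kcnj2). Kcnj2 also lost its call without stressed WT library 1 (log2 -0.38, edgeR adjusted p = 0.0503).

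**Figure D3:**
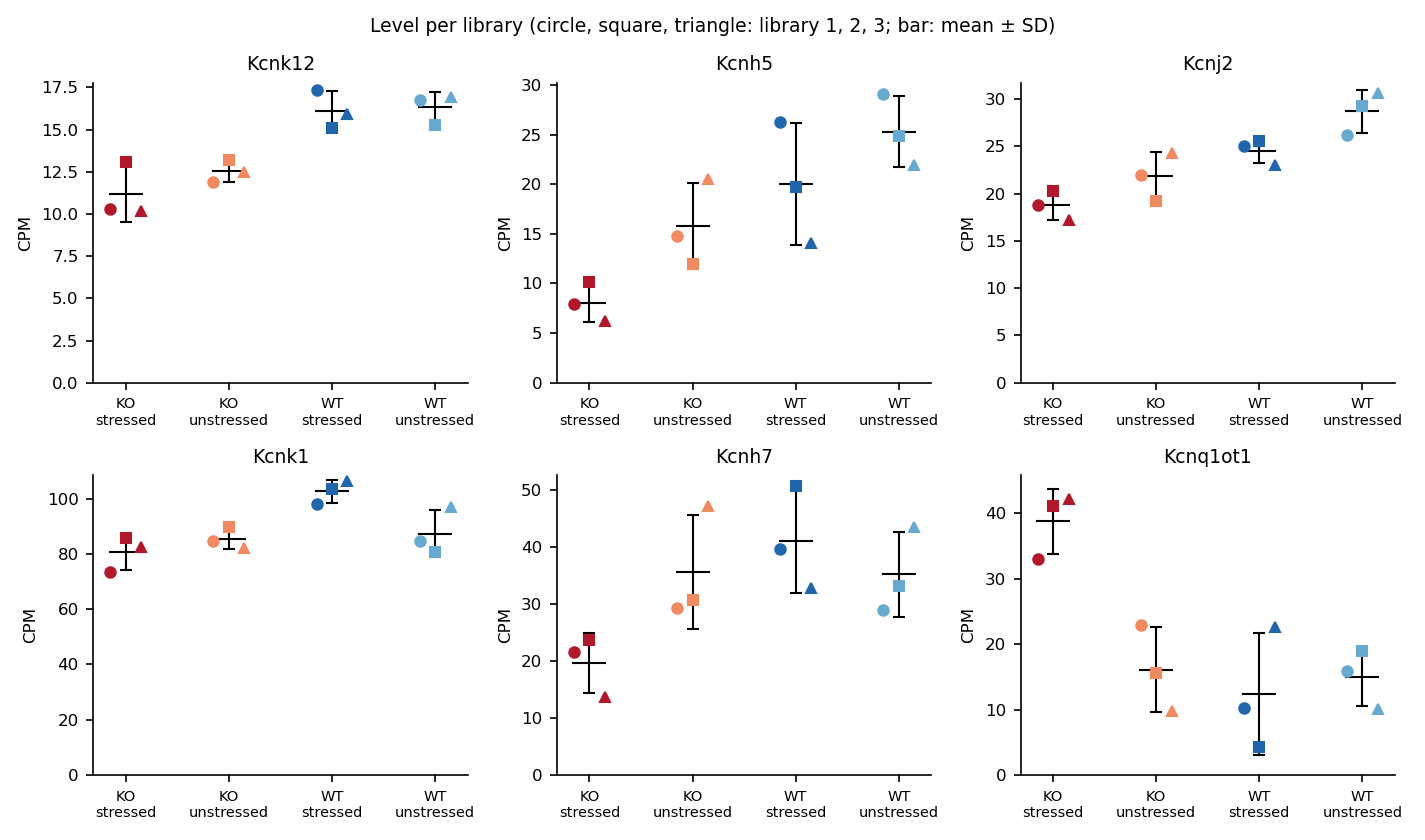
Level in CPM of 6 members in each of the 12 libraries, by group, with the group mean and SD. Kcnk12 separates all 6 KO from all 6 WT libraries, Kcnh5 and Kcnh7 are lowest and Kcnq1ot1 is highest in the 3 stressed KO libraries.

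Under stress, KO against WT, 0 of 81 members passed the edgeR threshold, as 0.25% of all genes did. At an unadjusted p under 0.05 there were 22 members, 27.2% of those tested, against 13% of all genes, and DESeq2 called 4 members, all lower in KO. The members with the smallest p were Kcnh5, Kcnk12 and Kcnh7. Kcnh5 averaged 8.08 ± 1.96 CPM in stressed KO and 20.02 ± 6.104 CPM in stressed WT (SD, n = 3 each), a log2 fold change of -1.30 ± 0.26 (SE, edgeR adjusted p = 0.0678). Kcnk12 averaged 11.2 ± 1.66 CPM in stressed KO and 16.1 ± 1.15 CPM in stressed WT, with a log2 fold change of -0.53 ± 0.11 (SE, edgeR adjusted p = 0.0829).

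Kcnh7 encodes Kv11.3, a neuronal channel of the ether-à-go-go-related group that resists depolarisation during sustained firing. It had 21.6, 23.6 and 13.7 CPM in stressed KO, 29.2, 30.6 and 47.1 CPM in unstressed KO, 39.6, 50.6 and 32.7 CPM in stressed WT and 28.97, 33.02 and 43.5 CPM in unstressed WT. The stressed KO libraries were again the lowest of all 12, and the other 3 groups overlapped. The log2 fold change in stress was -1.05 ± 0.25 (SE, edgeR adjusted p = 0.116). A call was gained by Kcnk12 without stressed KO library 2 (edgeR adjusted p = 0.0405), and by Kcnh5 without stressed WT library 3 (0.0489) or without unstressed WT library 3 (0.0403).

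The direction was shared by much of the family. In stressed KO 57 of the 81 tested members had a negative log2 fold change against stressed WT and 24 a positive one, with a median of -0.13, while the median of all genes was -0.00. The libraries of stressed KO lay entirely below those of stressed WT for 22 members (27.2%), against 11.3% of all genes, and entirely above for 3 members (3.7%), against 10.8% of all genes. By class the median was -0.23 for Kv, -0.33 for K2P, -0.13 for Kir, -0.06 for SK and BK and -0.02 for auxiliary genes. These are counts over genes measured in the same libraries, and no test was made of them. Without stressed KO library 1, which carries the striatal markers, the median was -0.08 and 0 members passed. Other marker scores differed too. Over 7 fast-spiking interneuron markers they were -0.16, -0.11 and -0.14 in stressed KO and 0.23, 0.39 and 0.26 in stressed WT. Over 15 oligodendrocyte markers they were 0.73, -0.40 and -0.46 in stressed KO and 0.24, 0.39 and 0.94 in stressed WT. The excitatory neuron scores overlapped. The part of cell composition was not tested. Among all genes the longest were also lower in stressed KO. Genes spanning 100 kb or more (2256 of all genes, 1390 of them negative) had a median of -0.05 in this comparison. The 22 members of that length had -0.20, with 19 of the 22 negative. The 29 members of 20 to 100 kb had a median of -0.09, with 21 negative, against -0.01 for all genes of that length. The 30 members spanning under 20 kb had a median of -0.18, against 0.02 for all genes of that length, but only 17 of the 30 were negative. The median centred log2 CPM of these 30 was -0.23, 0.00 and -0.04 in stressed KO libraries 1 to 3. It was 0.15, -0.02 and 0.03 in stressed WT libraries 1 to 3. The part of gene length in the result was not tested.

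Further members at the front of this comparison, named by their p after the values were seen, were Kcnk1 (80.6 ± 6.37 CPM in stressed KO and 103 ± 4.12 CPM in stressed WT) and Kcnj2 (18.8 ± 1.54 CPM in stressed KO and 24.5 ± 1.33 CPM in stressed WT). The edgeR adjusted p was 0.116 for Kcnk1 and 0.143 for Kcnj2. In the opposite direction stood Kcnq1ot1, an imprinted antisense RNA that silences neighbouring genes on the paternal chromosome. It had 33.01, 41.1 and 42.2 CPM in stressed KO, 22.9, 15.6 and 9.86 CPM in unstressed KO, 10.2, 4.24 and 22.7 CPM in stressed WT and 15.9, 19.01 and 10.1 CPM in unstressed WT. The 3 stressed KO libraries were the highest of all 12, and the other groups overlapped widely. Its log2 fold change in stress was 1.63 ± 0.46 (SE), with an edgeR adjusted p of 0.174, which did not pass. Kcnq1, the channel gene it overlaps, was scarce at 0.217 CPM per kb.

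Stress within KO mice, stressed against unstressed, called 0 members and 0.0197% of all genes with edgeR. At an unadjusted p under 0.05 there were 10 members (12.3%), against 9.2% of all genes, and DESeq2 called 0. The smallest p belonged to Kcnh5 (8.08 ± 1.96 CPM in stressed KO and 15.7 ± 4.34 CPM in unstressed KO, SD, n = 3 each), with a log2 fold change of -0.95 ± 0.26 (SE, edgeR adjusted p = 0.4702). Kcnh7 had a log2 fold change of -0.85 ± 0.25 (SE, edgeR adjusted p = 0.4702) and Kcnb2, the delayed rectifier Kv2.2, one of -0.63 ± 0.22 (SE, edgeR adjusted p = 0.4702). For both Kcnh5 and Kcnh7 the stressed libraries lay entirely below the unstressed ones. The libraries of stressed KO did not overlap those of unstressed KO for 16 members (19.8%), against 16.9% of all genes, and 11 of the 16 (13.6% of the members) were lower, against 8.45% of all genes.

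In WT mice 20 of 81 members differed between stressed and unstressed libraries, 11 higher and 9 lower with stress. That is 24.7% of the tested members, against 21.9% of all genes (9.71% higher and 12.1% lower), so the family was called about as often as all genes. All of these calls involve the unstressed WT group, 2 of whose 3 libraries had high olfactory bulb and meningeal scores. In the stressed WT libraries the 14 olfactory bulb markers summed to 43 to 209.5 CPM, against 190.5 to 1436 CPM in the unstressed ones, and 13 of the 14 passed as lower. The 15 meningeal markers summed to 186 to 334.7 CPM in stressed WT and 425.9 to 1298 CPM in unstressed WT, and 14 passed as lower. Other cell types moved in this comparison too: 10 of 15 oligodendrocyte markers and 3 of 7 fast-spiking interneuron markers passed as higher with stress, 0 of either as lower, and 4 of 10 astrocyte markers passed as lower. The excitatory neuron score over 11 markers was 0.01 to 0.17 in stressed WT and -0.73, -0.36 and 0.03 in unstressed WT libraries 1 to 3. The part of these markers in the calls was not tested. With library 3 as the lone unstressed WT library, or with the olfactory bulb score added to the model, 0 of the 81 members passed. With library 3 alone the log2 fold changes of the 20 genes were nearer to 0 in each case. These genes were called with libraries 1 and 2 in the fit, so some movement towards 0 is built in. The count was also 0 without stressed WT library 2 or unstressed WT library 2, 5 without unstressed WT library 1, 9 and 12 without stressed WT libraries 3 and 1, 13 without stressed KO library 2, and 41 without unstressed WT library 3.

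Of the tested members, the auxiliary subunit gene Kcnip3 had the smallest p. Kcnip3 had 201, 214 and 209.5 CPM in stressed WT and 117, 119 and 163 CPM in unstressed WT, a log2 fold change of 0.65 ± 0.11 (SE, edgeR adjusted p = 0.0123). In KO it had 196, 195 and 199 CPM with stress and 180.2, 197 and 210 CPM without. The 3 unstressed WT libraries were thus the lowest of all 12, and library 3 was the nearest of them to the other groups. Kcnmb4, the BK beta4 subunit of neurons, had 75.7, 78.95 and 87.3 CPM in stressed WT and 41.02, 46.7 and 62.7 CPM in unstressed WT (log2 0.69 ± 0.14, SE, edgeR adjusted p = 0.0132). It shares bases with Kcnmb4os2, which moved the same way (log2 0.67 ± 0.21, SE, edgeR adjusted p = 0.0406). Kcnip2 was lower, with 83.6, 65.3 and 65.2 CPM in stressed WT and 142, 127 and 76.5 CPM in unstressed WT (log2 -0.69 ± 0.19, SE, edgeR adjusted p = 0.0271). Here unstressed WT library 3 lay inside the stressed range, and with it alone the log2 fold change was -0.10. For Kcnip3 it was 0.35 and for Kcnmb4 0.36.

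Of the 35 tested Kv genes 4 were higher and 3 lower in stressed WT. Kcnh2, which encodes the ERG channel Kv11.1, had 47.9, 39.4 and 38.97 CPM in stressed WT and 87.5, 85.3 and 51.5 CPM in unstressed WT (log2 -0.83 ± 0.17, SE, edgeR adjusted p = 0.0134). Libraries 1 and 2 of unstressed WT stood well above library 3, which was itself just above the stressed ones. The A-type channel gene Kcnd3 (Kv4.3) had 122, 121 and 104 CPM in stressed WT and 168, 169 and 146 CPM in unstressed WT (log2 -0.48 ± 0.10, SE, edgeR adjusted p = 0.0136). Kcna1 (Kv1.1) was higher in stressed WT, at 199, 233 and 248 CPM, against 109.5, 128 and 190.2 CPM in unstressed WT (log2 0.67 ± 0.18, SE, edgeR adjusted p = 0.0245). Kcns3, a silent subunit that modifies Kv2 channels, was higher too, with 6.63, 7.83 and 7.2 CPM in stressed WT and 3.17, 4.08 and 5.1 CPM in unstressed WT (log2 0.81 ± 0.18, SE, edgeR adjusted p = 0.0163). Kcna6, uncertain for the reasons above, had a log2 fold change of 0.81 ± 0.19 (SE, edgeR adjusted p = 0.0175). With library 3 as the lone unstressed WT library the values were -0.29 for Kcnh2, -0.33 for Kcnd3, 0.25 for Kcna1, 0.50 for Kcns3 and 0.35 for Kcna6.

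In the SK and BK class Kcnn1, which encodes the small-conductance calcium-activated channel subunit SK1, had 21.2, 20.7 and 21.9 CPM in stressed WT and 12.2, 12.7 and 16.96 CPM in unstressed WT. Its log2 fold change was 0.61 ± 0.11 (SE, edgeR adjusted p = 0.0132), and 0.33 with unstressed WT library 3 alone. Among K2P genes Kcnk3 (TASK1) had 30.2, 34.4 and 32.2 CPM in stressed WT and 25.1, 27.1 and 26.5 CPM in unstressed WT (log2 0.30 ± 0.08, SE, edgeR adjusted p = 0.0247). All 3 unstressed WT libraries were close to each other here, and with library 3 alone the value was 0.28, nearly the same as with all. Kcnk15, whose TASK5 protein gives no current by itself, had 0.563, 0.257 and 0 CPM in stressed WT and 4.61, 4.42 and 0.795 CPM in unstressed WT (log2 -3.61 ± 0.84, SE, edgeR adjusted p = 0.0175). It was above 1 CPM in unstressed WT libraries 1 and 2 only, the libraries with high olfactory bulb scores. Kcnk5 (TASK2), also scarce, had 0.121, 0.343 and 0.205 CPM in stressed WT and 0.757, 1.502 and 0.4305 CPM in unstressed WT (log2 -2.01 ± 0.57, SE, edgeR adjusted p = 0.0307). With unstressed WT library 3 alone the log2 fold changes were -1.58 for Kcnk15 and -0.95 for Kcnk5. Both genes, and Kcnn4 below, passed the low-count filter only with the counts of unstressed WT libraries. Their direction was thus partly set by the filter, and their calls as lower are not separate evidence.

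The remaining 8 members past the threshold were named after their values were seen, Kcnmb4os2 among them. Higher in stressed WT were the silent subunit gene Kcnv1 (log2 0.46 ± 0.15, SE), the Kv beta1 gene Kcnab1 (0.61 ± 0.20) and the GIRK3 gene Kcnj9 (0.43 ± 0.14). Lower were Kcnh8 (-2.03 ± 0.58), Kcnj13 (-3.03 ± 0.93), Kcnn4 (-2.57 ± 0.81) and Kcnj10 (-0.55 ± 0.18). The astrocytic Kcnj10 had 161, 162 and 203 CPM in stressed WT and 285, 305 and 177 CPM in unstressed WT. Its unstressed library 3 lay within the stressed range, and with that library alone the log2 fold change was -0.02. Over 10 astrocyte markers the score was 0.36, 0.50 and 0.07 in unstressed WT libraries 1 to 3 and -0.23 to 0.05 in stressed WT. Kcnn4, the intermediate-conductance IK channel, reversed its sign, to 0.11, with unstressed WT library 3 alone. The others were then 0.27 for Kcnmb4os2, 0.16 for Kcnv1, 0.15 for Kcnab1, 0.11 for Kcnj9, -0.44 for Kcnh8 and -1.81 for Kcnj13.

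**Figure D4:**
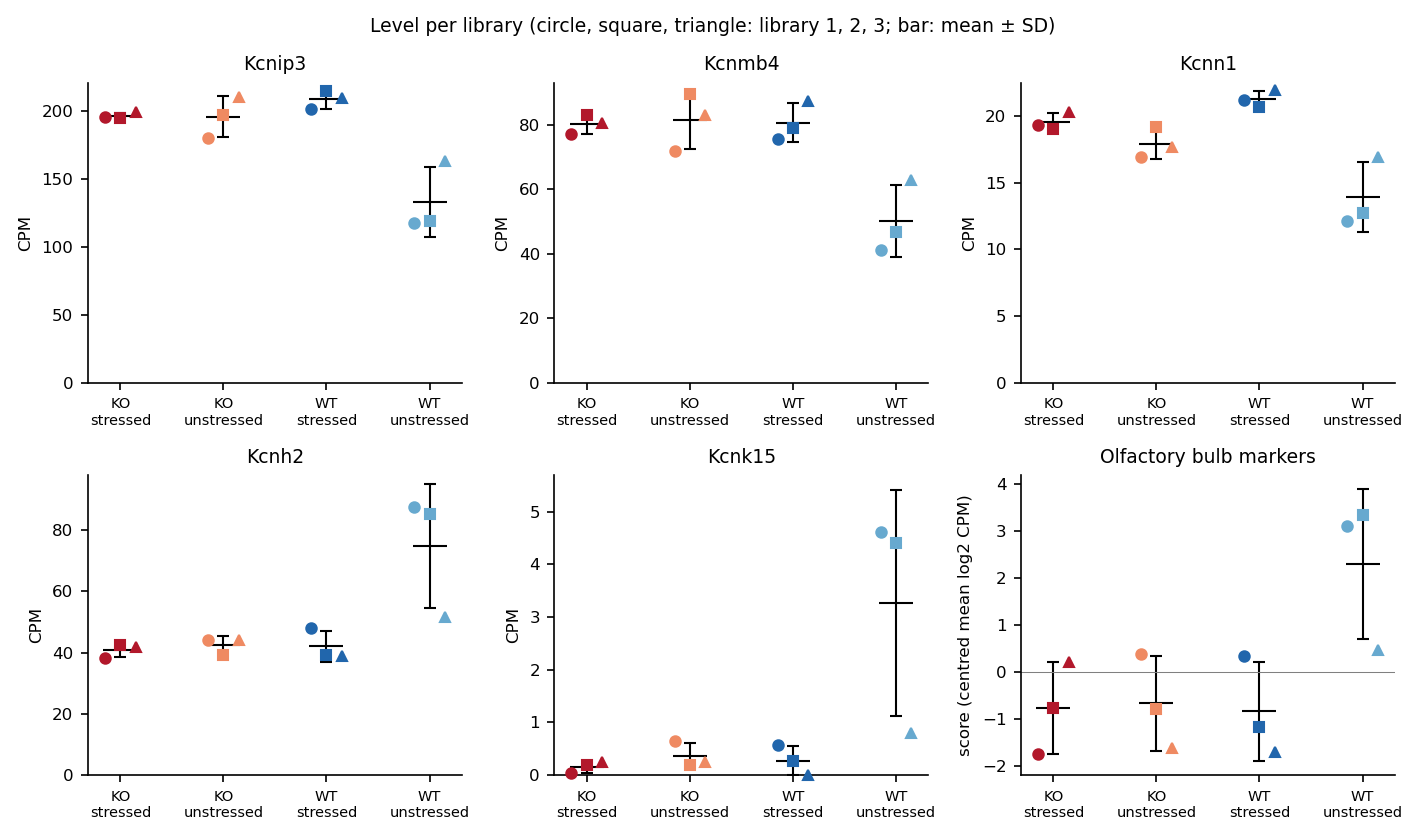
Level in CPM of 5 members with stress calls in WT, and the olfactory bulb marker score, in each of the 12 libraries by group, with the group mean and SD. In every panel the circle and the square of unstressed WT, libraries 1 and 2, stand apart from the other groups, while the triangle, library 3, lies nearer to them.

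**Figure D5:**
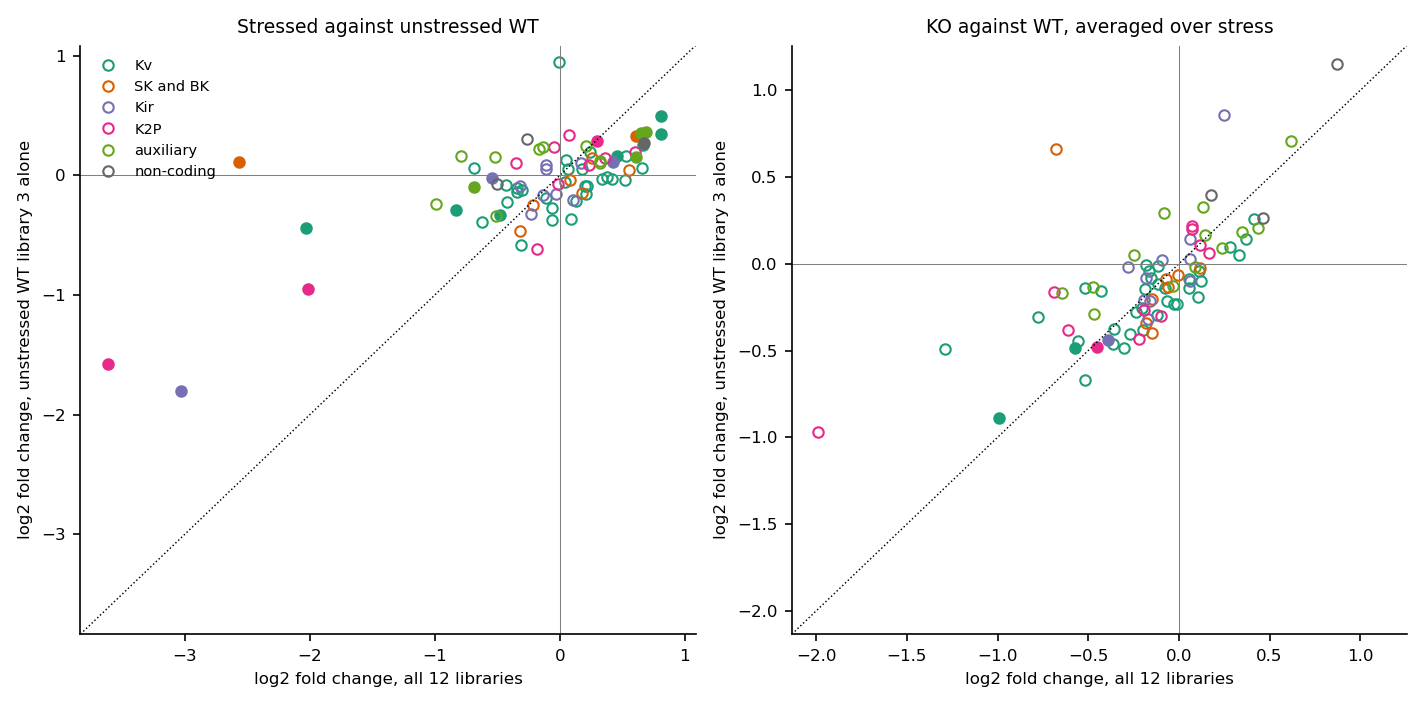
Log2 fold change of the 81 tested members with all 12 libraries (x axis) and with library 3 as the lone unstressed WT library (y axis), for stress in WT and for genotype averaged over stress; filled points passed with all libraries and the dotted line marks equal values. For stress in WT the 20 filled points fall towards 0 on the y axis, while the 4 of the genotype average lie near the line. The 20 were called with the libraries then left out. The genotype average includes stressed KO against stressed WT, which that choice leaves in place, so the panels are not like for like.

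Without stress, KO against WT, 21 of 81 members passed, 8 higher and 13 lower in KO. They are 25.9% of the tested members, against 23.2% of all genes (11.2% higher and 12.1% lower). This comparison uses the same unstressed WT libraries as stress in WT, so the values are given side by side and not as separate support. Kcnj2 (log2 -0.40 ± 0.10, SE) and Kcnk12 (-0.38 ± 0.11) passed as lower, beside values in stress of -0.39 ± 0.10 for Kcnj2 and -0.53 ± 0.11 for Kcnk12. For both genes the difference of KO from WT was therefore of similar size in the stressed and the unstressed mice.

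Many of the other calls were of genes already met in stress in WT. Kcnmb4 averaged 81.5 ± 8.87 CPM in unstressed KO and 50.1 ± 11.3 CPM in unstressed WT (log2 0.70 ± 0.14, SE), and Kcnmb4os2 had a log2 fold change of 0.77 ± 0.21. Kcnip3 averaged 196 ± 14.9 CPM in unstressed KO and 133 ± 25.8 CPM in unstressed WT (log2 0.56 ± 0.11, SE). Further members higher in KO were Kcns3 (0.82 ± 0.18), Kcna6 (0.77 ± 0.19) and Kcnab1 (0.74 ± 0.20). Lower were Kcnh2 (-0.82 ± 0.17), Kcnk15 (-3.12 ± 0.81), Kcnip2 (-0.70 ± 0.19) and Kcnip1 (-0.79 ± 0.22), the KChIP1 gene. Other calls, named after their values were seen, were Kcnk2 and Kcnn1 as higher and Kcnk5, Kcnk13, Kcnd3, Kcnab3, Kcnh4 and Kcnh8 as lower. Kcnk13 encodes THIK1, a leak channel of microglia, and had 4.77, 4.06 and 3.94 CPM in unstressed KO and 10.4, 7.54 and 5.73 CPM in unstressed WT. The 10 microglial markers scored -0.06 to 0.31 in unstressed KO and -0.21 to -0.09 in unstressed WT, and their part in the Kcnk13 result was not tested.

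With library 3 as the lone unstressed WT library 0 members passed in this comparison. The log2 fold changes of KO against WT were then -0.49 for Kcnj2 and -0.44 for Kcnk12, while those of Kcnip3 (0.26), Kcnh2 (-0.28) and Kcnip2 (-0.11) were nearer to 0 than with all libraries. Further values were 0.38 for Kcnmb4, 0.36 for Kcnmb4os2, 0.51 for Kcns3, 0.31 for Kcna6 and 0.28 for Kcnab1 among those called higher. Among those called lower they were -1.08 for Kcnk15, -0.11 for Kcnip1 and -0.43 for Kcnk13. Other values were 0.19 for Kcnk2, 0.08 for Kcnn1, -1.07 for Kcnk5, -0.18 for Kcnd3, -0.00 for Kcnab3, -0.99 for Kcnh4 and -0.20 for Kcnh8. For Kcnh4 unstressed WT library 3 was the highest of its group (15.4, 15.45 and 20.8 CPM), and -0.99 was its value furthest from 0 among the alternatives (-0.99 to -0.565). The count was 1 without unstressed WT library 2, 6 without unstressed WT library 1, 7 and 9 without unstressed KO libraries 2 and 3, and 39 without unstressed WT library 3. The olfactory bulb markers summed to 57.7 to 202.4 CPM in unstressed KO, against 190.5 to 1436 CPM in unstressed WT. Lhx1 was at 0 in all 3 unstressed KO libraries, but was also scarce in unstressed WT, at 0.344, 0.46 and 0.066 CPM.

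The difference between the stress responses of KO and WT mice was tested directly as an interaction. With edgeR 0 members and 0% of all genes passed. At an unadjusted p under 0.05 there were 27 members (33.3%), against 28.5% of all genes, and DESeq2 called 11 members. The smallest p belonged to Kcnip3, with a log2 difference of -0.64 ± 0.16 (SE, edgeR adjusted p = 0.0577), Kcnv1 with -0.78 ± 0.21 (edgeR adjusted p = 0.0621) and Kcnmb4 with -0.71 ± 0.19 (edgeR adjusted p = 0.0622). A negative value means that stress raised the gene less, or lowered it more, in KO than in WT. With unstressed WT library 3 alone the values were -0.35 for Kcnip3, -0.48 for Kcnv1 and -0.38 for Kcnmb4, and without that library 31 members passed. It was therefore not shown that any member responds to stress differently in the 2 genotypes.

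Averaged over the genotypes, stress called 0 members and 0.0395% of all genes with edgeR, and 26 members (32.1%) against 23.8% of all genes had an unadjusted p under 0.05. DESeq2 called 12 members. Kcnn1 had a log2 fold change of 0.37 ± 0.08 (SE, edgeR adjusted p = 0.0663), Kcnd3 one of -0.31 ± 0.07 (edgeR adjusted p = 0.0663) and Kcnip3 one of 0.33 ± 0.08 (edgeR adjusted p = 0.07297). For Kcnn1 the means were 20.4 ± 1.12 CPM in stressed mice and 15.9 ± 2.84 CPM in unstressed mice (SD, n = 6 each). No member had stressed libraries entirely to the same side of the unstressed ones in both genotypes, as 2.28% of all genes did. With unstressed WT library 3 alone the log2 fold changes were 0.23 for Kcnn1, -0.23 for Kcnd3 and 0.18 for Kcnip3, and without that library 31 members passed.

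On chromosome 11, which carries Cacna1g at 94408391 to 94474198 (minus strand), lie 8 tested members: Kcnh4 at a distance of 6.31 Mb, Kcnh6 at 11.6 Mb, Kcnj2 and Kcnj16 at 16.6 Mb, and Kcnab3, Kcnj12, Kcnmb1 and Kcnip1 on the other side, between 25.1 and 60.6 Mb away. Without stress Kcnj2, Kcnh4, Kcnab3 and Kcnip1 were called as lower in KO, as were 12.1% of all genes. These calls rest on the uneven unstressed WT group. Over the alternative fits the log2 fold change was -0.50 to -0.31 for Kcnj2 and -0.99 to -0.565 for Kcnh4. For Kcnab3 it was -1.28 to 0.18 and for Kcnip1 -1.05 to -0.11. Whether chromosome 11 holds more calls than other chromosomes was not tested. In the genotype average only Kcnj2 of these 8 members was called. Of the tested genes within 2 Mb of Kcnj2, 0 of 19 were called there, and of those within 2 Mb of Kcnk12 0 of 17, against 4 of 29 around Kcnh5. Around Kcnq1ot1, itself not called in the genotype average, 13 of 48 genes were called there, 27.1%, against 6.33% of all genes. Under stress, KO against WT, 2 of 48 were called, 4.17%, against 0.25% of all genes. The share was 27.7% in the overlapping window of Kcnq1, and 2 of 8 genes (25%) around each of Kcna4 and Kcnt2. Whether the RNA has a part in these calls was not tested.

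RefSeq promoters were found for 58 of the 81 tested members, 78 promoters in all. Their median GC content was 61.8%, against 52.7% over 32851 promoters. On either strand a GC box (GGGCGG) was present in 40 of them, 51.3%, against 35.7% of all promoters. An E-box (CACGTG) occurred in 7, 8.97% against 7.15%, and a TATA box (TATAAA) in 4, 5.13% against 13.6%. The cAMP response element TGACGTCA occurred in 0 of the 78 and 1.79% of all promoters, and the D-box TTATGNAA in 0 and 3.39%. These are descriptions of 300 bases each, and a match is not evidence of binding.

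Proteins that dock on, traffic or regulate potassium channels were followed as a list of 27 genes, 25 of which were tested. Averaged over stress 1 was lower and 1 higher in KO, 8% of the 25, against 6.33% of all genes. Among the Kv4 partners Dpp6, which speeds the A-type current, was lower in KO averaged over stress (257.7 CPM in KO and 306.6 CPM in WT, log2 -0.25 ± 0.06, SE, edgeR adjusted p = 0.0451). With stress in WT 7 were higher and 1 lower, 32% of the 25, against 21.9% of all genes. The calmodulin genes Calm2 (0.45 ± 0.10) and Calm3 (0.34 ± 0.10), calcium sensors of SK and Kv7 channels, were among the higher, with Lgi1, Vapb, Dtnbp1 and Gnb5. The lower was Lrrc55, a gamma subunit of BK channels (log2 -1.28 ± 0.33, SE). Without stress 5 were higher in KO, Calm2, Vapa and Vapb among them, and 2 were lower (Dpp6 and Lrrc55), 28% of the 25, against 23.2% of all genes. All of these calls use the unstressed WT libraries, of which libraries 1 and 2 had the high olfactory bulb and meningeal scores. With library 3 as the lone unstressed WT library, a setting chosen for these genes after the data were seen, 0 of the 25 passed in each of the 3 comparisons. The log2 fold change of Dpp6 in the genotype average was then -0.21, and for stress in WT those of Calm2, Calm3 and Lrrc55 were 0.38, 0.21 and 0.01. That of Gnb5 was 0.40, further from 0 than with all libraries (0.30 ± 0.07, SE), while the other partners called for stress in WT were nearer to 0. In stress in KO, genotype with stress, the interaction and the stress average edgeR called 0 of the 25.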

How the data were processed

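The 12 libraries were made from total RNA with a kit that marks strand, per the labels' protocols. The deposited table of the authors holds estimated counts without normalisation, in a column for each library. RSEM 1.3.1, STAR 2.7.9a, Trim Galore 0.6.6 and DESeq2 1.36.0 are named, with build mm10, per the submitters' processing notes. The sources used here do not give the annotation or the strand setting of the counting.

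Estimated counts were rounded to whole numbers. The filterByExpr filter, at a minimum count of 10 and a minimum total of 15, kept 15199 of 24411 genes and 81 of 95 members. Libraries were scaled by TMM. A single edgeR quasi-likelihood fit (R 4.3.3, edgeR 4.0.16, limma 3.58.1) of 4 group means over 12 libraries gave 7 two-sided contrasts with 8 residual degrees of freedom. P-values were adjusted by Benjamini-Hochberg over all genes tested, with a threshold of 0.05. The method was tested on counts simulated from the fitted means and spread. No simulated library carried other tissue, so the simulation does not cover the uneven unstressed WT group. Standard errors are those of the fit. Permuting 3 against 3 libraries gives a p of 0.1 at the smallest, and was not used. CPM use the TMM factors. Log2 CPM, used for marker scores, has a prior count of 2. Levels per kb use the exons of GENCODE mouse release 21 on GRCm38, matched by symbol. Limits from 3 counts and intervals cover counting error only.

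The members, gene lists and tests were chosen with earlier results of these data known. Named genes are, per comparison, the members past the threshold (the 12 of smallest p where more passed, the 3 of smallest p where none did). To these come the 3 of highest level per kb in each class, and members whose groups do not overlap in both stress states or genotypes; a few that meet the rule are not reported here. Kcnv1, Kcna2, Kcnd2, Kcnn2 and Kcnk12 in the account of levels, and Kcnk1, Kcnj2 and Kcnq1ot1 under genotype with stress, were added after their values were seen. So was the set of called members beyond the 12. Alternatives were DESeq2 size factors, DESeq2 1.42.0, no filter on low counts, only the compared groups, the replicate number as a block, leaving out each of 12 libraries, library 3 as the lone unstressed WT library (also without stressed KO library 1) and the olfactory bulb score in the model. Replicate libraries differed beyond counting noise (chi-square per degree of freedom of 4.90 to 71.1), so none was counted as a duplicate.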

Additional observations from a re-analysis of the deposited data

How the results depend on the processing

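Counts of members past the threshold changed with DESeq2 to 31 for stress in WT (20 with edgeR), 4 for genotype with stress (0), 11 for the interaction (0), 12 for the stress average (0) and 17 for the genotype average (4). Fitting only the compared groups gave 0 for stress in WT and 0 for genotype without stress (21), where fewer libraries estimate the spread, and was not run for the averages and the interaction. With library 3 as the lone unstressed WT library, also without stressed KO library 1, and with the olfactory bulb score added to the model as covariate, the counts were 0 for stress in WT, 0 for genotype without stress and 0 for the genotype average. Genotype with stress gave 2 with the covariate. Leaving out 1 library at a time gave 0 to 41 for stress in WT, 0 to 1 for genotype with stress, 1 to 39 for genotype without stress, 0 to 31 for the interaction, 0 to 31 for the stress average and 3 to 24 for the genotype average, each maximum above 1 without unstressed WT library 3. Stress in KO gave 0 throughout. With DESeq2 size factors, or without the filter, every count was within 1.5 times its value. Kcnn4 reversed for stress in WT, to 0.11 with library 3 alone, 0.11 also without stressed KO library 1 and 0.32 with the covariate. Kcnab3 reversed for genotype without stress, to 0.18 with the covariate. The cause of these changes was not tested. Over the named members 749 alternative values kept side and sign, 356 lost the call, 20 gained one and 4 reversed.

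Whether the replicate numbers pair the libraries was not settled: 4 of 18 same-numbered pairs had deviations correlated over 0.1 (range -0.25 to 0.36). These were library 1 of unstressed WT, stressed WT and unstressed KO with each other (0.22 to 0.30), and library 3 of unstressed KO with unstressed WT (0.36). Pairs with different numbers were not compared. With the replicate block the counts were 24 for stress in WT, 23 for genotype without stress, 9 for the genotype average and 0 for the others.

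Depth limits the scarce members most. Kcnk15, Kcnk5, Kcnh8, Kcnj13 and Kcnn4, which averaged under 1 CPM per kb, include libraries at or near the 3 counts that a count of 0 allows (0.0920 to 0.192 CPM). Kcnk15, Kcnk5 and Kcnn4 were tested only because of their counts in unstressed WT. This limits their calls for stress in WT, and those of Kcnk15 and Kcnk5 for genotype without stress.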
